A study of Mus musculus with 15 samples.

Results

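The genes described here encode the major histocompatibility complex (MHC) molecules of the mouse and the proteins that load them with peptide. All gene symbols that begin with H2- were taken, together with B2m, Tap1, Tap2, Tapbp, Tapbpl, Erap1, Nlrc5, Ciita, Cd74, Psmb8, Psmb9 and Psmb10. These rules gave 56 of the 31298 gene symbols in the series. The class I branch held 41 of them and the class II branch 14, while H2-Ke6 belongs to neither branch, since it encodes an enzyme and no MHC chain. Hematopoietic stem cells (HSCs) had been sorted from bone marrow of mice that carried an hCD34-tTA driver and a TetO-H2BGFP reporter. The driver puts tTA, and through it the labelled histone, under the human CD34 promoter, so the label reports only on cells in which that promoter had been active. Doxycycline (1 mg/ml) switches the reporter off, and a cell then dilutes the label each time it divides. The sort took LSK cells that were CD48-, Flk2- and CD150+. These were separated by GFP level into the bins GFP4, GFP3, GFP2 and GFP1, and an undivided sort was kept as Total. Each of the 5 groups had 3 libraries, replicates I, II and III. Replicate I came from mice aged 5 months after 12 weeks of doxycycline, replicate II from mice aged 5.5 months after 14 weeks, and replicate III from mice aged 6.5 months after 16 weeks. All groups received doxycycline. The bin numbers are read here as rising with retained label. The labels do not state this, nor whether a library came from 1 mouse or several. The sources used here do not give the strain background or MHC haplotype. P-values measure only the spread between these libraries.

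MHC class I molecules consist of a heavy chain, such as H2-K1 or H2-D1, and the light chain beta-2-microglobulin (B2m). They display peptides that the proteasome cuts in the cytosol, that the Tap1 and Tap2 transporter carries into the endoplasmic reticulum, and that tapasin (Tapbp) helps to load. Nearly all nucleated cells carry them, HSCs included, and interferons raise them through Irf1 and the transactivator Nlrc5. Class II molecules pair an alpha with a beta chain, take peptides from endocytic compartments and depend on the invariant chain Cd74 and the transactivator Ciita. Class II molecules are best known from B cells, dendritic cells and macrophages.

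Both branches share a promoter grammar, and 190 bases around the start sites are printed for 8 members. Whether these letters relate to the values below was not tested. Each printed stretch runs from 180 bases before to 10 bases after the RefSeq start on GRCm38.p6, 5′ to 3′ along the gene. Capitals mark 4 motifs searched on both strands: TGATTGG, the letters of the Y box that NF-Y binds, TGACG, letters that CREB-type factors bind, GGGATTCC, part of the class I enhancer A, and GAAANNGAA, letters of an interferon-stimulated response element. In H2-Aa a match of TGACG on each strand overlaps, which gives 1 longer capital run. Windows were found for 38 of the 56 members. H2-K1 lies at chr17:34000324-34000513 on the minus strand (the last of 2 listed starts), H2-D1 at chr17:35262914-35263103 on the plus strand and B2m at chr2:122147507-122147696 on the plus strand. H2-Aa lies at chr17:34287814-34288003 on the minus strand, H2-Eb1 at chr17:34305687-34305876, H2-DMb1 at chr17:34153011-34153200, H2-DMb2 at chr17:34145069-34145258 and H2-Ob at chr17:34238725-34238914, the last 4 on the plus strand.
H2-K1: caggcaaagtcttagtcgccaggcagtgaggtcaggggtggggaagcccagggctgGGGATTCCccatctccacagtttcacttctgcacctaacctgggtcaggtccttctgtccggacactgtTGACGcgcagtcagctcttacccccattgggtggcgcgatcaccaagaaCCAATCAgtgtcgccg
H2-D1: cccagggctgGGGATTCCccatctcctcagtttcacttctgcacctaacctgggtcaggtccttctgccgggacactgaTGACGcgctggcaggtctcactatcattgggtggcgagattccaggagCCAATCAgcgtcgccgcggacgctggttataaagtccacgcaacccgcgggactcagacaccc
B2m: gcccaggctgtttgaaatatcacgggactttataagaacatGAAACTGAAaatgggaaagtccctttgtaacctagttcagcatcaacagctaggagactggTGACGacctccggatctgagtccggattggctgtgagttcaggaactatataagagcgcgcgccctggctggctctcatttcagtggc
H2-Aa: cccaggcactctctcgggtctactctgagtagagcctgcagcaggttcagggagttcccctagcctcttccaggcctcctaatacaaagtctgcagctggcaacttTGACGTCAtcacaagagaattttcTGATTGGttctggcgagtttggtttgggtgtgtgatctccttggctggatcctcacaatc
H2-Eb1: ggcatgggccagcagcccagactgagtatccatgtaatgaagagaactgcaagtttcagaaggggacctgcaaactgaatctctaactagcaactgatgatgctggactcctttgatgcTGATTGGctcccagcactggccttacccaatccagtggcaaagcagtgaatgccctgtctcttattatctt
H2-DMb1: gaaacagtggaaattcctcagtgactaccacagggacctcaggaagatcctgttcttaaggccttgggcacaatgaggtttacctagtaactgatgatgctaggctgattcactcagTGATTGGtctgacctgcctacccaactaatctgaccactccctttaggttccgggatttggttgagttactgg
H2-DMb2: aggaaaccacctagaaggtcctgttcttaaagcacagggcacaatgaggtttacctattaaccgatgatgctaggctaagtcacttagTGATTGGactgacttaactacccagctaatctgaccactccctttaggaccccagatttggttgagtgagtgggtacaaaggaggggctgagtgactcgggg
H2-Ob: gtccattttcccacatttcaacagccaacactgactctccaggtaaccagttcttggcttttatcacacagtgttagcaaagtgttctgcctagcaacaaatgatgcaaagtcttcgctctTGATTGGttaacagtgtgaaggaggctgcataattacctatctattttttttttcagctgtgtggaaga

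Motifs were counted over windows longer than the printed stretches, from 250 bases before to 50 bases after the start. TGATTGG or its reverse complement stood in 24 of the 38 member windows, beside 7.82% of all 32851 windows of that longer length. All 7 of the 8 class II windows that held it had it as written, whereas 15 of the 17 class I windows that held it, out of 29, had it on the other strand. TGACG was present in 15 member windows (20.81% of all windows), 14 of them class I. GGGATTCC was found in H2-K1, H2-D1, H2-Q6 and H2-Q7, beside 1.06% of all windows. GAAANNGAA stood in B2m, Erap1, H2-T22 and H2-T23, beside 8.56% of all windows. These are letter matches in a fixed window, not measured binding. Tap1 and Psmb9 start 226 bases apart on opposite strands and share that stretch of DNA.

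By the GENCODE annotation of GRCm38, 49 of the 56 genes lie on chromosome 17. H2-K1 spans 17:33996017-34000347 and H2-D1 spans 17:35262730-35267499, while H2-Ob spans 17:34238903-34254414 within the class II region. B2m lies outside that cluster, at 2:122147686-122153083. Of the 56 genes, 54 passed the filter on low values (3 or more libraries with a linear value of 1 or higher), 39 of class I and all 14 of class II. H2-M1 and H2-M10.6 did not pass. A mean of at least 10 ppm, given as a share of a library's summed linear values, was reached by 34, of which 23 were class I and 10 class II. Class I heavy chain genes resemble each other. Of the 31-base words in their annotated transcripts, 22.8% in H2-K1, 26.7% in H2-D1, 50.3% in H2-Q6 and 51.0% in H2-T22 also occur in another gene, so how reads were split between these heavy chains is uncertain. B2m, Nlrc5, H2-Oa and H2-Ob share none.

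The values are log2 and quantile normalized, so read depth is unknown and all libraries have nearly the same distribution. The 7 HSC markers Kit, Ly6a, Slamf1, Procr, Mecom, Hlf and Fgd5 were above the lowest value of the library in all 15 libraries. Their summed level was 3377 to 3941 ppm in GFP4, 2995 to 3464 ppm in GFP3, 2669 to 2847 ppm in GFP2, 1804 to 1828 ppm in GFP1 and 1815 to 2529 ppm in Total. GFP1 and Total stood apart by their immunoglobulin transcripts, which made up 4.92 to 5.28% of the summed linear values in GFP1 and 4.34 to 5.49% in Total. In the other 9 libraries the share lay between 0.00726 and 0.0737%. Under quantile normalization, transcripts that enter the top ranks lower the value of every gene they pass. B2m held rank 6 to 9 in GFP4, GFP3 and GFP2, rank 13 in GFP1 and rank 10 to 12 in Total. Differences of such top-ranked genes are therefore also given after renormalization without 351 immunoglobulin genes. In sorted bulk samples, fewer cells of a type and less RNA per cell cannot be told apart.

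Class I genes were lower in GFP1 than in GFP4 across most of their roles, from heavy chains and light chain to loading chaperones and the transactivator. None of the 39 tested class I members rose, and 16 fell. Over all 27994 tested genes 10.3% fell and 9.27% rose (limma, adjusted p under 0.05). The median difference was -0.47 over the 39 members and -0.07 over all genes. Among members of at least 10 ppm, 15 of 23 fell, beside 21.5% of the 10337 genes of that level. The genes of the peptide transporter (Tap1, Tap2) and of the immunoproteasome (Psmb8, Psmb9, Psmb10) differed by between -0.07 and 0.21, and none of the 5 passed the test. All 16 genes that fell had GFP1 libraries entirely below the GFP4 libraries, and for 11 of them the 4 bin means fell in bin order. Over all genes called lower, 98.9% were separate in this way and 77.1% fell in bin order, so neither count sets the class I genes apart from the other falls. The trend over the 4 bins, a slope per bin, called 17 class I genes lower and none higher (10.5% and 9.6% of all genes), or 11 lower without GFP4 replicate II or GFP1 replicate III. Of the 17, 10 kept the call under all alternative fits. That of H2-D1 (adjusted p = 0.0463) was lost in 13 of 23, renormalization without immunoglobulin genes among them. A called slope need not be graded. The highest bin mean was in GFP2 for H2-K1 (16.92) and in GFP3 for H2-T3 (7.85).

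The classical heavy chain H2-K1 was measured at 16.76, 16.94 and 16.94 in GFP4 (log2, replicates I, II and III, the order used throughout) and at 16.48, 16.04 and 15.98 in GFP1. GFP3 gave 16.76, 16.94 and 16.76, GFP2 16.94, 16.86 and 16.94 and Total 16.68, 16.41 and 16.48. The libraries of GFP4, GFP3 and GFP2 overlapped and all lay above those of GFP1, which differed from GFP4 by -0.71 ± 0.11 (log2 ± SE, adjusted p = 0.000109). H2-D1, the other classical heavy chain, read 16.86, 16.86 and 16.86 in GFP4, where it held the same rank in all 3 libraries, and 16.68, 16.26 and 16.26 in GFP1. Its difference was -0.46 ± 0.13 (adjusted p = 0.0196). B2m, the light chain that all these heavy chains need, read 17.29, 17.13 and 17.29 in GFP4, 16.94, 17.29 and 17.29 in GFP3, 17.13, 17.02 and 17.02 in GFP2, 16.57, 16.57 and 16.57 in GFP1 and 16.86, 16.68 and 16.68 in Total. It was -0.67 ± 0.08 in GFP1 against GFP4 (adjusted p = 5.32e-06), and no GFP1 library reached any library of the other bins.

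For these 3 abundant genes the size depended on the immunoglobulin transcripts. Renormalized without them, H2-K1 read 16.62, 16.80 and 16.80 in GFP4 and 16.70, 16.21 and 16.14 in GFP1, so that replicate I overlapped. Its difference became -0.38 and still passed (adjusted p = 0.0216). B2m became -0.28 (adjusted p = 0.0106) with GFP1 at 16.80, 16.80 and 16.80 and GFP4 at 17.12, 16.99 and 17.12, which still did not overlap. H2-D1 became -0.11 and no longer passed (adjusted p = 0.645). H2-D1 also missed the threshold without GFP4 replicate I, II or III and without GFP1 replicate II or III (adjusted p = 0.0530 to 0.0867). The plasma cell transcript Jchain was not among the genes removed. As deposited it read 4.76, 8.44 and 11.67 in GFP4 and 17.02, 16.94 and 17.29 in GFP1. In each GFP1 library it stood above H2-K1, B2m and H2-D1. Its part in the differences left after renormalization was not tested.

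The difference between H2-K1 and B2m within a library was -0.36 ± 0.17 in GFP4 and -0.40 ± 0.27 in GFP1 (log2, mean ± SD, n = 3), a change of -0.05 (exact two-sided permutation test, p = 0.9). The libraries of the 2 bins overlapped in this measure. With 3 against 3 libraries the smallest p this test can give is 0.1.

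Heavy chain genes of class I below those ranks fell as well, and renormalization moved the 2 largest and H2-Q6 by little. H2-K2, which lies beside H2-K1 and which GENCODE annotates as a transcribed pseudogene, had the largest fall, from 10.05, 10.14 and 10.39 in GFP4 through 9.60, 10.04 and 9.92 in GFP3 and 9.33, 9.48 and 9.52 in GFP2 to 8.91, 8.84 and 8.87 in GFP1. No bin overlapped its neighbour, although the highest GFP3 library came close to the lowest of GFP4. The difference of -1.32 ± 0.14 (adjusted p = 9.66e-07) was -1.25 without immunoglobulin genes. H2-Q4, which encodes a nonclassical chain, read 12.03, 11.56 and 11.27 in GFP4 and 10.78, 10.67 and 10.10 in GFP1, a difference of -1.10 ± 0.19 (adjusted p = 0.000392, and -1.07 without immunoglobulin genes). H2-Q6, of the Qa-2 family, read 14.69, 15.10 and 14.97 in GFP4 and 14.51, 14.20 and 14.20 in GFP1 (-0.62 ± 0.10, adjusted p = 0.000147, and -0.54 without immunoglobulin genes). In both, the GFP4 replicates were spread more widely than in GFP3, yet stayed above GFP1.

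H2-T23 encodes Qa-1, the nonclassical molecule that NK cell receptors of the CD94 and NKG2 type read. It was measured at 14.72, 14.92 and 14.85 in GFP4, 14.64, 14.74 and 14.64 in GFP3, 14.68, 14.54 and 14.54 in GFP2 and finally 14.39, 14.33 and 14.20 in GFP1. Its spread between replicates was small, and the difference of -0.52 ± 0.08 (adjusted p = 3.90e-05) was -0.45 without immunoglobulin genes. H2-T22, a chain that some gamma delta T cells recognize, differed by -0.76 ± 0.10 (adjusted p = 1.24e-05). H2-M3, which presents formylated peptides, read 11.14, 11.14 and 11.07 in GFP4 and 10.56, 10.56 and 10.35 in GFP1, with no overlap (-0.63 ± 0.12, adjusted p = 0.000738). H2-Q10 (-0.61 ± 0.17), H2-T24 (-0.51 ± 0.14) and H2-T3 (-0.82 ± 0.23) passed too, each with an adjusted p that rose past the threshold when 1 library was left out. That was GFP4 replicate II or GFP1 replicate III for H2-Q10 (adjusted p = 0.0833 to 0.0958), GFP4 replicate I or GFP1 replicate III for H2-T24 (0.0540 to 0.101) and GFP4 replicate II or GFP1 replicate II for H2-T3 (0.0576 to 0.0913). H2-Q5 (-0.47 ± 0.17, adjusted p = 0.0620), H2-Q7 (-0.35 ± 0.22) and H2-T10 (-0.14 ± 0.19) did not pass between GFP1 and GFP4. H2-Q5 passed in the trend (adjusted p = 0.0478), a call that was lost in 13 of 23 alternatives, both rescalings among them (adjusted p up to 0.197). GENCODE lists H2-Q5 and H2-T10 as polymorphic pseudogenes.

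**Figure D1:**
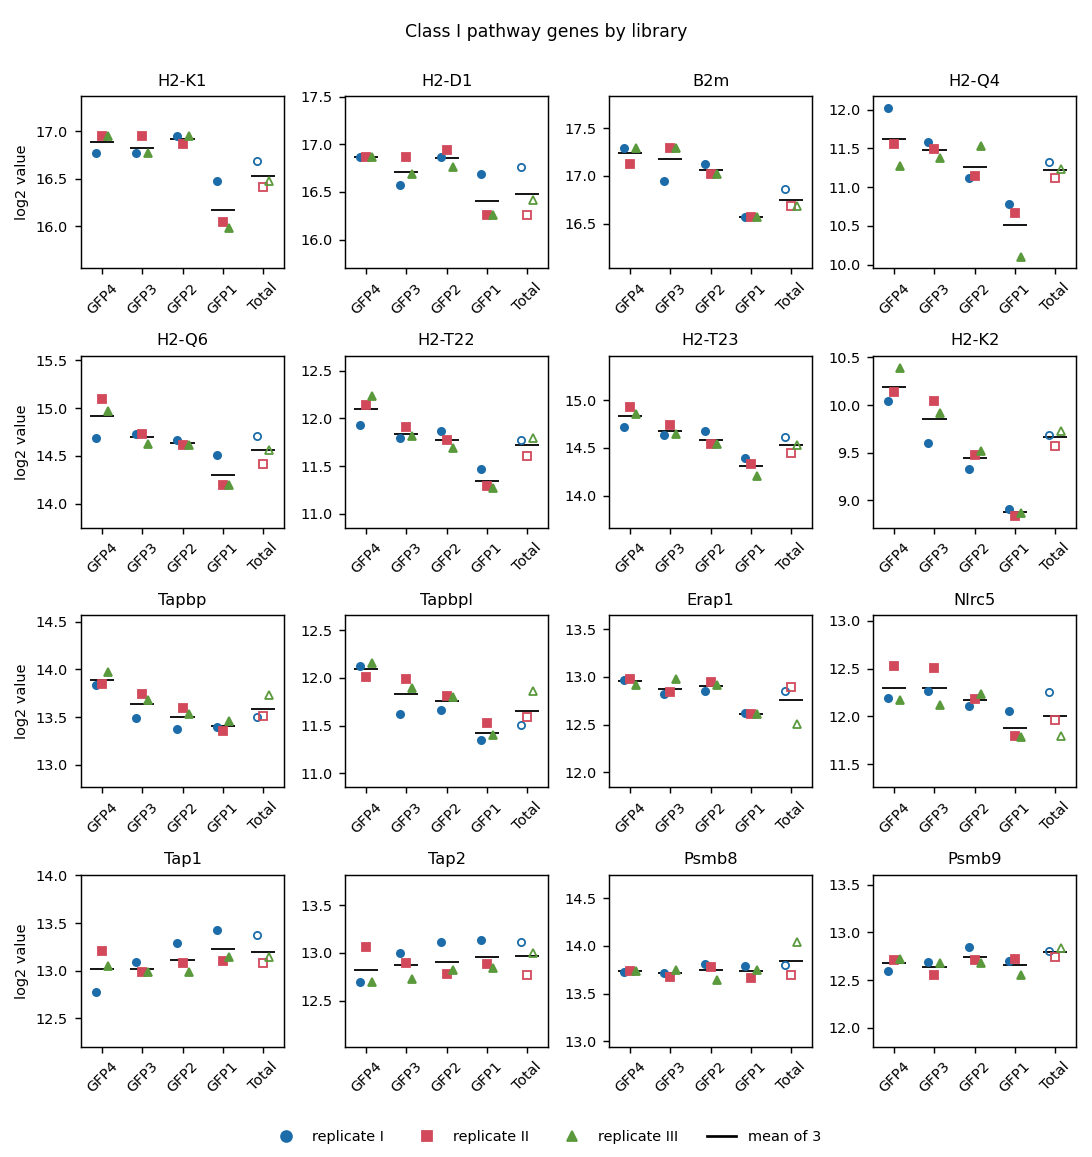
Deposited log2 value (y axis, 1 panel per gene, each with its own range) of 16 class I pathway genes in the 5 groups (x axis). Symbols are the 3 replicates and bars their mean. H2-K2, Tapbp and Tapbpl step down through the bins, and Psmb8 stays near 13.73 in all 4 bins. H2-K1 and H2-D1 overlap over 3 bins and have their lowest mean in GFP1. GFP1 replicate I of H2-D1 lies within the range of GFP3.

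The chaperones that put peptide into class I molecules fell, as did the trimming enzyme and the transactivator. Tapasin (Tapbp), which bridges heavy chain and transporter, read 13.84, 13.85 and 13.97 in GFP4, 13.49, 13.74 and 13.68 in GFP3, 13.37, 13.60 and 13.53 in GFP2 and finally 13.40, 13.36 and 13.45 in GFP1. All GFP4 libraries lay above all others of the bins, and the difference of GFP1 was -0.48 ± 0.09 (adjusted p = 0.000430). Tapbpl, which encodes the peptide editor TAPBPR, read 12.13, 12.004 and 12.16 in GFP4 and 11.35, 11.53 and 11.40 in GFP1 (-0.67 ± 0.11, adjusted p = 0.000150). Erap1, the aminopeptidase that trims peptides, was tight in both groups at 12.97, 12.98 and 12.92 and 12.62, 12.61 and 12.61 (-0.34 ± 0.09, adjusted p = 0.0113). Nlrc5, the class I transactivator, read 12.20, 12.53 and 12.17 in GFP4 and 12.06, 11.79 and 11.79 in GFP1 (-0.42 ± 0.13, adjusted p = 0.0256). Its groups were separate by a narrow margin, and the call was lost without GFP4 replicate II, GFP1 replicate II or GFP1 replicate III (adjusted p = 0.0986 to 0.159).

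Tap1 and Tap2, which together form the transporter, had differences of the opposite sign that did not pass. Tap1 read 12.78, 13.21 and 13.05 in GFP4 and 13.43, 13.11 and 13.15 in GFP1 (0.21 ± 0.12, adjusted p = 0.250), and Tap2 differed by 0.14 ± 0.12 (adjusted p = 0.561). The inducible proteasome subunits replace the constitutive ones when immunoproteasomes form: Psmb8 takes the place of Psmb5, Psmb9 of Psmb6 and Psmb10 of Psmb7. Psmb8 had overlapping groups, at 13.72, 13.74 and 13.74 in GFP4 and 13.79, 13.67 and 13.75 in GFP1 (0.00 ± 0.08). Psmb9 (-0.01 ± 0.08) and Psmb10 (-0.07 ± 0.11) did not pass either, with adjusted p between 0.793 and 1.00 for all 3. Psmb8 and Psmb9 had smaller replicate spread than most genes of at least 10 ppm, only 12.0% and 4.50% of which were tighter.

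The constitutive partners rose. Psmb5 read 11.78, 11.61 and 11.80 in GFP4 and 12.68, 12.48 and 12.38 in GFP1 (0.78 ± 0.12, adjusted p = 6.26e-05), with no overlap. Psmb6 rose by 0.47 ± 0.10 (adjusted p = 0.00206) and Psmb7 by 0.61 ± 0.10 (adjusted p = 0.000175). The difference between Psmb8 and Psmb5 within a library was 2.00 ± 0.11 in GFP4, 1.81 ± 0.07 in GFP3, 1.57 ± 0.14 in GFP2 and finally 1.22 ± 0.14 in GFP1 (log2, mean ± SD, n = 3). Such a difference has no meaning as a level, since transcript length enters it, but its change between bins does. It changed by -0.78 between GFP4 and GFP1, that of Psmb9 and Psmb6 by -0.49 and that of Psmb10 and Psmb7 by -0.68. In all 3 pairs the GFP1 and GFP4 libraries did not overlap, which gives the smallest p that an exact permutation test of 3 against 3 allows (p = 0.1). The pairs were singled out after the values had been seen, so neither the separation nor the p gives independent support.

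**Figure D2:**
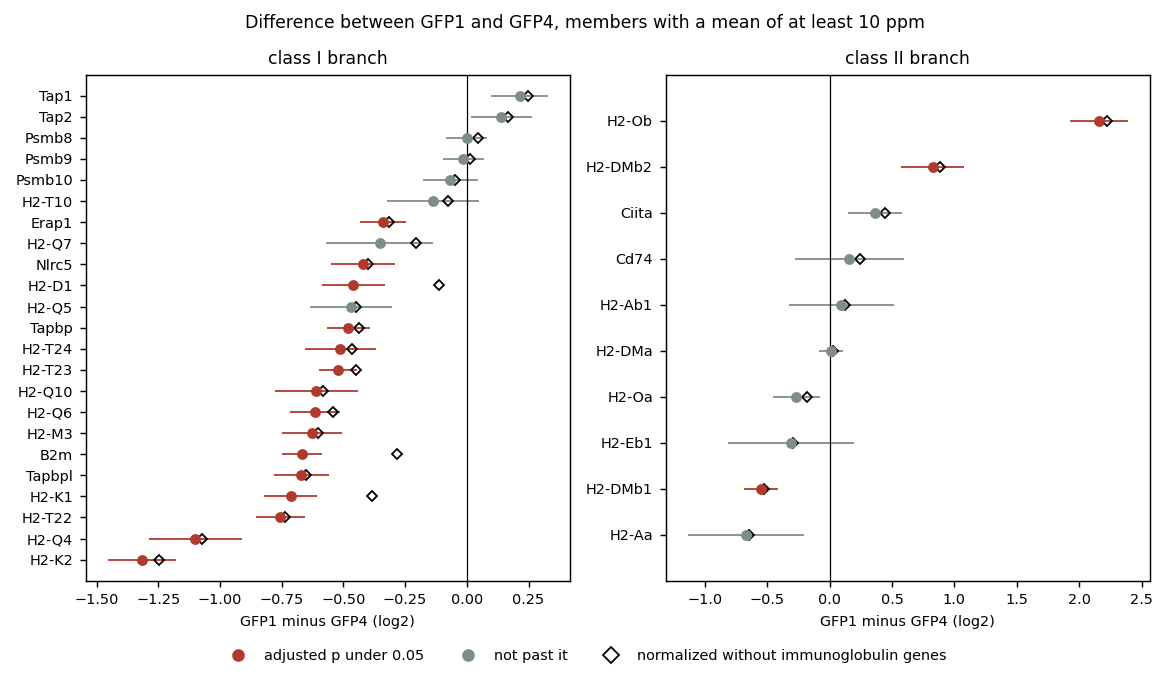
Difference of GFP1 from GFP4 (x axis, log2) for the class I (left) and class II (right) members of at least 10 ppm. Filled circles are limma estimates with their SE, red where adjusted p was under 0.05, and open diamonds the values after renormalization without immunoglobulin genes. Diamonds of B2m, H2-K1 and H2-D1 stand clear of their circles, that of H2-Q7 by less, and the other pairs lie close together.

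Among the steps between neighbouring bins, class I members passed the test only from GFP2 to GFP1. Between GFP3 and GFP4 no member of either branch passed, against 0.0572% of all genes called in either direction (16 genes). At an unadjusted p under 0.05 it was 7 of 39 class I members and 1 of 14 class II members, beside 5.86% of all genes. Between GFP2 and GFP3 the count called was 0 of all genes (0%), and at an unadjusted p under 0.05 it was 1569 genes (5.60%), among them 2 class I members and 0 class II members (limma, the only test run). From GFP2 to GFP1, 8 class I members fell and 1 rose (4.1% and 3.06% of all genes). The 8 were B2m (-0.49), H2-K1 (-0.75), H2-D1 (-0.45), H2-K2 (-0.57), H2-Q4 (-0.75), H2-T22 (-0.43), H2-T23 (-0.28) and H2-T3 (-1.14). Without immunoglobulin genes B2m became -0.13 (adjusted p = 0.458), H2-D1 -0.12 (0.728) and H2-T23 -0.21 (0.134), so these 3 calls were lost. That of H2-T23 was also lost with median-of-ratios rescaling and without any GFP2 replicate or GFP1 replicate II or III (adjusted p = 0.0653 to 0.174). The call of H2-D1, at an adjusted p of 0.0470, was lost in 14 alternatives. H2-K1 (-0.41) and H2-T3, which read 7.84, 7.74 and 7.48 in GFP2 and 6.65, 6.44 and 6.57 in GFP1, passed under all alternatives. Calls were also lost for H2-K2 without GFP2 replicate II or III or GFP1 replicate II or III (adjusted p = 0.0532 to 0.0704), for H2-Q4 without GFP2 replicate III or GFP1 replicate III (0.0971 to 0.107) or with the compared groups alone (0.0552), and for H2-T22 without GFP1 replicate III (0.0580). The 1 that rose was H2-M10.1, at 0.14, 0.14 and 0.41 in GFP2 and 3.00, 4.21 and 4.05 in GFP1. It is a very low gene that lost the call without any single library of the 2 groups (adjusted p = 0.0568 to 0.112). The number of class I calls was 5 without GFP2 replicate II or GFP1 replicate II, 4 without GFP2 replicate III and 3 without GFP1 replicate III.

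GFP2 against GFP4 compares bins that both hold few immunoglobulin transcripts. There 2 class I members fell, H2-K2 (-0.75 ± 0.14, adjusted p = 0.00301) and Tapbp (-0.38 ± 0.09, adjusted p = 0.0146), and none rose. Over all genes 1.67% fell and 2.69% rose. The call of H2-K2 held in all alternatives, and that of Tapbp was lost without GFP4 replicate III or GFP2 replicate I (adjusted p = 0.0865 to 0.116), each leaving 1 class I member called. The count was 4 without GFP4 replicate I and 6 without Total replicate III. The class I median was -0.18, beside -0.01 over all genes. With GFP1 and Total left out of the fit altogether, 3 class I members were called.

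For all 16 class I members that fell between GFP4 and GFP1, the Total mean lay between those of the 2 bins. Total is the undivided sort, so this position does not by itself set class I genes apart. In GFP4 against Total 8 class I members were higher and none lower (4.7% and 5.29% of all genes): B2m (0.50), H2-K1 (0.36), H2-K2 (0.53), H2-Q6 (0.36), H2-T22 (0.38), H2-T23 (0.30), Tapbp (0.30) and Tapbpl (0.44). Each of the 8 lost its call under at least 1 alternative, and without immunoglobulin genes 3 remained called in number, with H2-K1 at 0.00 and B2m at 0.12. The count was 3 without GFP4 replicate II, 1 without GFP4 replicate III and 2 without Total replicate II. GFP3 against Total called B2m (0.43) and H2-T3 (1.00) higher and no class I gene lower (0.672% and 1.47% of all genes). Neither call was stable: 1 was left without GFP3 replicate I or Total replicate III, and 0 without GFP3 replicate II or III. GFP2 against Total called no member (0.0107% higher and 0.318% lower over all genes), and 6 class I and 2 class II members at an unadjusted p under 0.05, beside 6.72% of all genes. In GFP1 against Total only H2-K2 was lower (-0.79 ± 0.14, adjusted p = 0.00474), beside 1.41% of all genes lower and 0.318% higher, and that call was lost with the compared groups alone (adjusted p = 0.0632). The count became 2 without GFP4 replicate I or III or GFP1 replicate I. These comparisons share the Total libraries, and those above share GFP4 or GFP1.

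Other genes of the class I pathway and its interferon input moved in both directions between GFP4 and GFP1. Of 15 processing and loading genes that are no members, 6 fell and 4 rose, beside 10.3% and 9.27% of all genes. Those with the smallest p among the falls were Irf1 (-1.14 ± 0.09, adjusted p = 4.30e-08), which carries interferon signals to class I promoters, Irf9 (-0.87), Irf2 (-0.88) and Mr1 (-0.99), a class I-like molecule that presents vitamin B metabolites to T cells. Irf1 read 12.79, 12.83 and 13.02 in GFP4, 12.46, 12.67 and 12.67 in GFP3, 12.28, 12.39 and 12.39 in GFP2, 11.82, 11.77 and 11.64 in GFP1 and 12.30, 12.21 and 12.35 in Total. Its 4 bins did not overlap and fell in bin order, and the Total libraries overlapped GFP2. Those that rose were the constitutive proteasome subunits above and the chaperone calreticulin (Calr, 0.30 ± 0.06, adjusted p = 0.00135). Among 8 interferon receptor and kinase genes 3 fell and none rose, read against the same shares: Jak1 (-0.59), Ifnar1 (-0.56) and Ifngr2 (-0.55). In GFP2 against GFP4 the 15 genes gave 4 falls and 2 rises, and the 8 gave 1 fall and no rise, beside 1.67% of all genes lower and 2.69% higher.

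Class II genes followed no common course over the bins. Of the 14 class II members, all tested, 3 rose in GFP1 against GFP4 (H2-Ob, H2-DMb2 and H2-Eb2) and 1 fell (H2-DMb1). All 4 are accessory or minor chains. The classical chains H2-Aa, H2-Ab1 and H2-Eb1, the invariant chain Cd74 and the transactivator Ciita did not pass. The median difference was 0.05, and with so few calls the shares cannot be set apart from the 9.27% and 10.3% of all genes. In the trend over the bins 3 were higher and 1 lower, or 2 called in all without GFP4 replicate I or GFP1 replicate II.

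H2-Ob, the beta chain of H2-O, which restrains peptide exchange by H2-M, had the largest rise. It read 7.70, 8.68 and 8.01 in GFP4, 8.81, 8.66 and 8.66 in GFP3, 9.39, 9.20 and 8.73 in GFP2, 10.41, 10.45 and 10.002 in GFP1 and 9.61, 10.19 and 9.66 in Total. The bin means rose at each step, and the GFP1 libraries lay above all others of the bins. The rise from GFP4 to GFP1 was 2.16 ± 0.23 (adjusted p = 1.22e-06) and 2.22 without immunoglobulin genes. H2-Ob was the only class II member to rise in GFP2 against GFP4 (0.98 ± 0.23, adjusted p = 0.0181). That call was lost without GFP4 replicate I or III or GFP2 replicate I or II (adjusted p = 0.0640 to 0.124, with differences of 0.76 to 0.93). It rose again from GFP2 to GFP1 (1.18 ± 0.23, adjusted p = 0.00306), together with H2-DMb2. GFP4 (-1.69 ± 0.23) and GFP3 (-1.11 ± 0.23) were both below Total for H2-Ob, the latter not without GFP3 replicate II or III or Total replicate II (adjusted p = 0.0640 to 0.0786). Its partner chain H2-Oa did not pass, at 8.98, 8.94 and 9.38 in GFP4 and 8.83, 8.90 and 8.77 in GFP1 (-0.27 ± 0.19). The difference between H2-Ob and H2-Oa within a library thus went from -0.97 ± 0.61 in GFP4 to 1.45 ± 0.19 in GFP1 (log2, mean ± SD, n = 3, exact permutation test, p = 0.1, the smallest possible). This pair was singled out after the values had been seen, so the p gives no independent support.

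The 2 beta chains of H2-M, the protein that swaps the invariant chain peptide for antigen, moved in opposite directions. H2-DMb1 read 11.41, 11.14 and 11.49 in GFP4, 11.03, 11.29 and 11.34 in GFP3, 10.99, 11.40 and 11.11 in GFP2 and finally 10.64, 10.99 and 10.75 in GFP1. It fell by 0.55 ± 0.13 from GFP4 to GFP1 (adjusted p = 0.00569), with the 2 bins apart. H2-DMb2 read 9.10, 9.10 and 8.78 in GFP4, 8.64, 9.15 and 8.61 in GFP3, 8.72, 9.01 and 8.45 in GFP2, 10.03, 10.14 and 9.30 in GFP1 and 9.58, 10.22 and 9.26 in Total. It overlapped over the first 3 bins and was higher in GFP1 (0.83 ± 0.25, adjusted p = 0.0262), with replicate III the lowest of GFP1 and of Total. The call was lost without GFP4 replicate I, II or III or GFP1 replicate I or II (adjusted p = 0.0503 to 0.124). Against GFP2 the rise was 1.09 ± 0.25 (adjusted p = 0.0118), lost without GFP2 replicate III or GFP1 replicate I or II (0.0591 to 0.0682). The difference of H2-DMb2 from H2-DMb1 within a library went from -2.35 ± 0.33 in GFP4 to -0.98 ± 0.43 in GFP1 (log2, mean ± SD, n = 3, exact permutation test, p = 0.1). This pair, too, was singled out after the values had been seen, so the p gives no independent support. The paralogs share 31.4% of the 31-base words of H2-DMb1, so their reads could have been split in part. The alpha chain H2-DMa, common to both, read 12.32, 12.14 and 12.12 in GFP4 and 12.18, 12.24 and 12.19 in GFP1 and did not pass (0.01 ± 0.10). H2-Eb2, a second E beta gene of low level, read 3.74, 4.64 and 4.63 in GFP4 and 5.49, 5.85 and 5.70 in GFP1 (1.34 ± 0.44, adjusted p = 0.0373). Its call was lost without GFP4 replicate I or III or any GFP1 replicate (adjusted p = 0.0503 to 0.159), so 2 class II calls were left without GFP4 replicate I or III or GFP1 replicate I or II.

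The classical class II chains varied widely between replicates, and none passed the test between any of the groups compared. H2-Aa, the A alpha chain, read 13.30, 12.57 and 12.87 in GFP4, 12.20, 13.30 and 12.72 in GFP3, 12.03, 13.18 and 12.30 in GFP2, 12.04, 13.08 and 11.60 in GFP1 and 12.13, 13.19 and 12.58 in Total. All groups overlapped, and GFP1 differed from GFP4 by -0.67 ± 0.46 (adjusted p = 0.432). H2-Ab1, its beta partner, read 13.26, 12.36 and 12.62 in GFP4 and 12.83, 13.43 and 12.27 in GFP1 (0.09 ± 0.42). H2-Eb1, the E beta chain, read 12.08, 11.25 and 11.62 in GFP4 and 11.12, 12.19 and 10.72 in GFP1 (-0.31 ± 0.51). Cd74, the invariant chain, read 14.89, 14.19 and 14.40 in GFP4, 13.52, 14.88 and 14.19 in GFP3, 13.21, 14.60 and 13.51 in GFP2, 14.67, 15.04 and 14.25 in GFP1 and 14.34, 15.19 and 14.67 in Total (0.16 ± 0.44 for GFP1 against GFP4). For these 4 genes replicate II was the highest library in GFP3, GFP2, GFP1 and Total, and replicate I the highest in GFP4. Within a group the highest library exceeded the lowest by 0.71 to 1.48 (log2), which is 1.63 to 2.78 times on the linear scale. Ciita, which switches class II genes on, read 8.76, 8.84 and 8.43 in GFP4 and 9.04, 9.31 and 8.78 in GFP1 (0.37 ± 0.22, adjusted p = 0.314). Replicate II was highest for Ciita as well, except in GFP2, where replicate III was.

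Leaving out 1 library turned the direction for several of these uncalled chains. Cd74 went to -0.0369 without GFP1 replicate II, H2-Ab1 to -0.197 without GFP1 replicate II and -0.0994 without GFP4 replicate II, and H2-Eb1 to 0.00119 without GFP1 replicate III. The SD within groups was 0.54 for Cd74 and 0.63 for H2-Eb1, larger than in 95.7% and 96.5% of the genes of at least 10 ppm. For H2-K1 it was larger than in 49.4% and for H2-T23 than in 8.0% of them. Deviations of the 15 libraries from their group means ran together, with r = 0.997 between H2-Aa and H2-Eb1, 0.969 between H2-Aa and H2-Ab1 and 0.937 between H2-Aa and Cd74. These are descriptions over libraries that share a sort and a normalization.

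**Figure D3:**
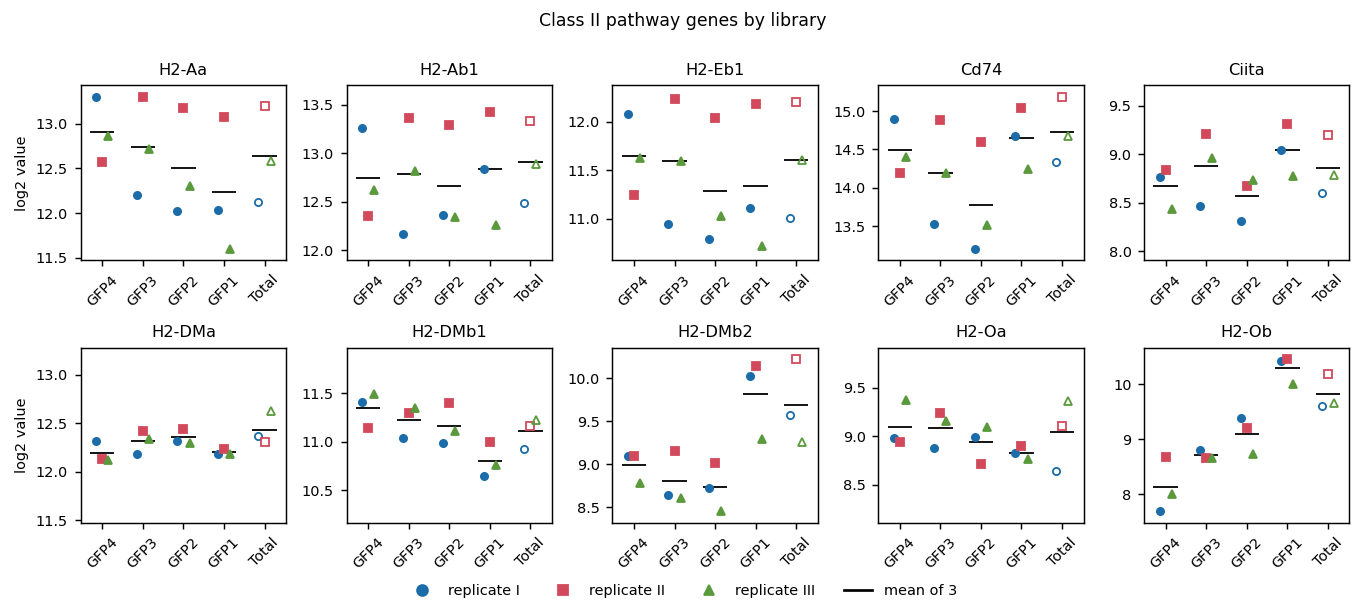
Deposited log2 value (y axis, each panel with its own range) of 10 class II pathway genes in the 5 groups (x axis). Symbols are the 3 replicates and bars their mean. In the top row replicate II (square) is highest in GFP3, GFP1 and Total, while in the bottom row H2-Ob climbs through the bins and H2-DMb2 is higher in GFP1 and Total.

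Of 15 other genes of class II processing and expression, 2 rose and 3 fell in GFP1 against GFP4. With 9.27% of all genes higher and 10.3% lower, counts this small cannot be set apart from the background. Ifi30, the lysosomal thiol reductase GILT that unfolds antigens, read 7.61, 7.30 and 7.60 in GFP4 and 8.89, 9.08 and 8.45 in GFP1 (1.31 ± 0.24, adjusted p = 0.000427). Ctsl, a protease that can degrade the invariant chain, read 11.86, 11.66 and 11.79 in GFP4 and 10.43, 10.81 and 10.33 in GFP1 (-1.25 ± 0.13, adjusted p = 5.42e-07). Both genes had separate groups, in opposite directions. Rfxank (-0.41 ± 0.11) and Rfx5 (-0.31 ± 0.11), subunits of the complex at the X box of class II promoters, fell slightly, and Nfyc (0.29 ± 0.10), a subunit of NF-Y, rose slightly. Ctss, the protease that finishes invariant chain removal in macrophages and B cells, did not pass (0.89 ± 0.71). In GFP2 against GFP4 the list gave 1 rise and no fall (2.69% and 1.67% of all genes).

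Markers of other cell types were measured beside the class II genes, since macrophages, dendritic cells and B cells are the best known carriers of class II. The summed level of 10 macrophage and monocyte markers was 402, 107 and 177 ppm in GFP4, 181, 489.7 and 279 ppm in GFP3, 191, 904 and 285 ppm in GFP2, 291, 979 and 284 ppm in GFP1 and 221, 599 and 432 ppm in Total. In each of the 5 groups the library with the highest sum was the one with the highest H2-Aa, H2-Ab1, H2-Eb1 and Cd74. The list gave 1 of 10 genes higher and none lower in GFP1 against GFP4, near the 9.27% and 10.3% of all genes. That gene was Ly6c2, a monocyte surface antigen, which made up most of the sums of GFP1 replicates I and III. Over the other 9 markers, a set chosen after the values had been seen, the sums were 309.8, 70.3 and 119.7 ppm in GFP4, 136, 432 and 229.5 ppm in GFP3, 174, 841 and 256 ppm in GFP2, 60.3, 616 and 85.6 ppm in GFP1 and 89.8, 382 and 165 ppm in Total. The highest library of each group was the same over these 9, and GFP1 replicates I and III were among the lowest of the 15. Between groups the order differed from that of H2-Aa: GFP2 replicate II had the highest sum of the 9, GFP1 replicate II that of all 10, and GFP4 replicate I the highest H2-Aa. The 11 B cell markers summed to 89.2 to 122 ppm in GFP4, 107 to 156 ppm in GFP3, 84.2 to 138 ppm in GFP2, 235 to 378 ppm in GFP1 and 221 to 416 ppm in Total, and 8 of 11 were higher in GFP1 than in GFP4. H2-DMb2, H2-Ob and H2-Eb2 were high in the same 2 groups. In GFP2 against GFP4, 0 of the 11 B cell markers were called and their sums overlapped. H2-Ob was called higher there, a call that 4 alternatives lost. The sort had selected against cells with lineage markers or CD48, and how many such cells remained was not measured. The part of macrophages, dendritic cells and B cells in the class II values was not tested.

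Of the other lists, all 9 plasma cell markers were higher in GFP1, with a sum of 257 to 557 ppm in GFP4 and 19463 to 20471 ppm in GFP1, most of it the immunoglobulin light chain Igkc. Total was at 17829 to 21278 ppm. The counts called in these lists stand beside 9.27% of all genes higher and 10.3% lower in GFP1 against GFP4. Dendritic cell markers summed to 64.1 to 67.7 ppm in GFP4 and 41.1 to 45.6 ppm in GFP1, with 3 of 9 higher and 3 lower. T and NK cell markers summed to 59.2 to 67.5 ppm in GFP4 and 162 to 210.0 ppm in GFP1, with 4 of 9 higher and 1 lower. Most of the GFP1 sum was Nkg7, a granule protein of cytotoxic cells. The other 8, a set chosen after the values had been seen, summed to 47.2 to 48.9 ppm in GFP4 and 38.7 to 56.6 ppm in GFP1. These sums overlap but hide opposite movements. Klrb1c went from 9.70, 9.91 and 10.37 in GFP4 to 7.53, 7.54 and 8.32 in GFP1. For Cd3e, Cd3d, Cd3g and Trac all GFP1 libraries lay above those of GFP4. Eosinophil, basophil and mast cell markers summed to 3.47 to 15.6 ppm in GFP4 and 60.5 to 87.2 ppm in GFP1, with 2 of 6 higher. The HSC list had 5 of 7 markers lower and none higher in GFP1, beside the class I falls, and its part in them was not tested. No defining marker was at the lowest value of its library in all 15. Gzma and Epx were there in 6 libraries, Marco and Prg2 in 2, and Tnfrsf17 and Fcer1a in 1.

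**Figure D4:**
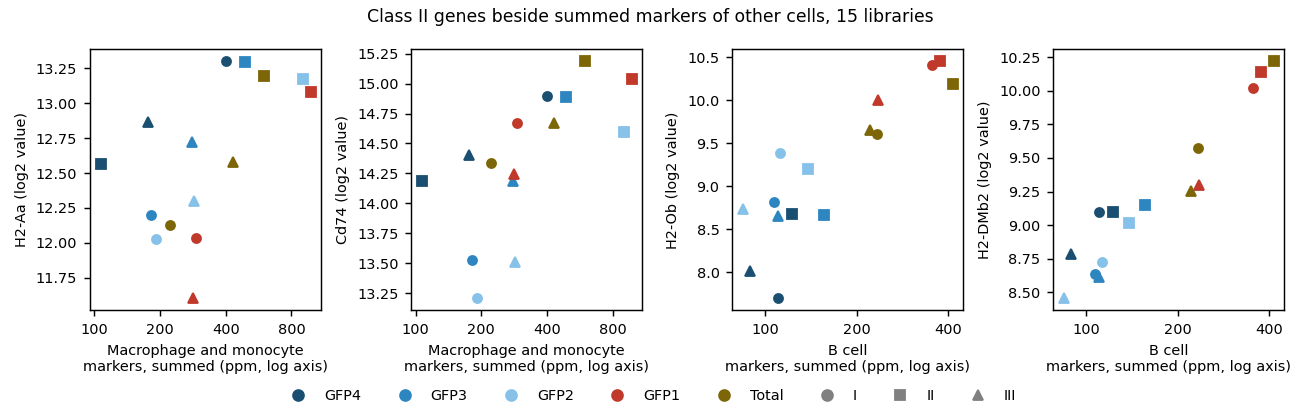
Log2 value of H2-Aa, Cd74, H2-Ob and H2-DMb2 (y axes) against the summed level of macrophage and monocyte markers (first 2 panels, all 10 markers, Ly6c2 included) or B cell markers (last 2 panels) in ppm on a log axis. Each point is 1 of the 15 libraries, with color for the group and shape for the replicate. The right-hand panels show GFP1 and Total at B cell sums of 221 ppm or more with the highest H2-Ob, while GFP4, GFP3 and GFP2 share 1 range of sums and differ in H2-Ob.

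The members below 10 ppm that have not been named were H2-Bl, H2-Q1, H2-Q2, H2-Q3, H2-Ea-ps, H2-Pa, H2-Pb and the H2-M rows other than H2-M3 and H2-M10.1. None of those tested passed in any comparison. H2-Ke6 read 11.38, 11.47 and 11.49 in GFP4 and 11.34, 11.41 and 11.26 in GFP1 and did not pass (-0.11 ± 0.09), although 76.1% of its 31-base words also occur in another annotated gene.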

How the data were processed

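RNA from sorted mouse HSCs was measured in 15 libraries, 5 groups of 3. The authors deposited 1 table of log2 values per gene symbol. The submitters' processing notes list kallisto 0.43.0 and GRCm38, but the sources used here do not give the starting unit, the offset before the logarithm or how transcripts became genes. From the values, columns are quantile normalized. Depth is therefore unknown and no counting interval is given. A further 26 symbols read as dates and were left alone.

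Linear values (2 to the power of the value, minus 1) served for filters and ppm. The planned design named a count test only for counts. Since the file held log2 values, 1 mean per group was fitted to 27994 genes (3 or more libraries with a linear value of 1 or higher) with limma 3.58.1 in R 4.3.3, intensity trend, robust moderation and 10 residual degrees of freedom. P-values were adjusted by Benjamini-Hochberg over all genes of a comparison, threshold 0.05. The fit was tested on simulated data. Members of at least 10 ppm or past the threshold in any comparison could be named, up to 4 pathway genes each way by smallest p, and others are given by counts. Of the pathway and marker lists, 2 genes are not reported here and enter none of the lists' counts or sums. Members, lists and tests were chosen with earlier results of these data known. The subunit pairs compared within a library, and the constitutive subunits, Ctss and the fit without GFP1 and Total, were singled out after values had been seen. Alternatives were a replicate block, renormalization without 351 immunoglobulin genes, median-of-ratios rescaling, other filters, a pseudocount of 0.1, array weights, fits of the compared groups alone and leaving out each library. Promoter windows come from RefSeq (GRCm38.p6) and gene coordinates and shared words from GENCODE M21. Promoter windows on chromosome 18, where Cd74 lies, were left out of the members and of the 32851 windows. In all, 18 members had no window.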

Additional observations from a re-analysis of the deposited data

How the results depend on the processing

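Of the 20 members called between GFP1 and GFP4, 11 of class I and 2 of class II kept the call under all 23 alternatives tried for it. The number of class I members called there stayed between 12 and 18. With a replicate block, GFP1 against GFP4 gave 17 class I members. The block changed the class II count from 1 to 2 in GFP4 against Total and in GFP3 against Total and from 0 to 1 in GFP2 against Total, and the class I count from 1 to 2 in GFP1 against Total. In the labels, libraries of 1 number share age and doxycycline time, and no animal, litter or batch is named. Of 30 same-numbered pairs of libraries 21 had deviations from their group means correlated above 0.1 (range -0.41 to 0.59), and 11 of 15 libraries correlated best with their own number. This hints at a shared replicate effect, and by design age and doxycycline time change with the replicate number in every group. The fits were planned without a block, so such an effect stays in their spread. With the block, H2-Aa, H2-Ab1, H2-Eb1 and Cd74 still did not pass between GFP1 and GFP4.

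Without immunoglobulin genes the class I count was 3 in GFP4 against Total and 1 in GFP3 against Total. H2-K1 and B2m move there by construction of the ranks. In GFP4 against Total the lower-ranked H2-Q6 (adjusted p = 0.0995), H2-T23 (0.0654) and Tapbp (0.0788) lost their calls as well. With the compared groups alone (fewer libraries) the class I count was 2 in GFP4 against Total and 0 in GFP3 or GFP1 against Total. For GFP2 against GFP4 it was 4 with a filter at a mean of 1 ppm and 4 with array weights, and for GFP1 against Total it was 2 with the 1 ppm filter. Where no construction explains a change, the cause was not tested. Psmb8 reversed to -0.0121 with array weights, and Psmb9 to 0.0107 without immunoglobulin genes and 0.0393 with median-of-ratios rescaling, all uncalled. The median over all genes in GFP1 against GFP4 was -0.07 as deposited and -0.02 under both rescalings.

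Leaving out 1 library at a time gave 2 to 4 class II members in GFP1 against GFP4. In the trend it gave 11 to 17 of class I and 2 to 4 of class II. In GFP1 against GFP2 the ranges were 3 to 10 and 1 to 2, and in GFP2 against GFP4 1 to 6 and 0 to 1. In GFP4 against Total they were 1 to 10 and 1 to 2, and in GFP3 against Total 0 to 3 and 0 to 2. Class I gave 0 to 1 in GFP2 against Total and 1 to 2 in GFP1 against Total. In GFP1 against GFP4 the uncalled Cd74 ranged from -0.0369 to 0.361, H2-Ab1 from -0.197 to 0.383, H2-DMa from -0.0231 to 0.0728, H2-Eb1 from -0.735 to 0.00119, Psmb8 from -0.0263 to 0.0339 and Psmb9 from -0.0559 to 0.0385. The difference of H2-K1 from B2m changed by -0.203 to 0.0452. Where an arm was left with 2 libraries, the spread was pooled over all groups. Depth is unknown, so the precision of low genes could not be given.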
